A study of Drosophila melanogaster with 6 samples.

Results

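The subject is 988 short and medium-sized regions of the X chromosome that were enriched for ubiquitylated histone H2B (H2Bub) in late embryos of *Drosophila melanogaster*. They were taken by position and width alone from the authors' region list for the whole series, called the combined list here. A region belonged if it lay on X, was under 20 kb wide and ended before the last 2 Mb of the assembled arm, which is the centromeric end. The combined list held 5802 regions, of which 1099 were on X. Of these, 52 lay in the last 2 Mb and 59 outside it were 20 kb or wider, which left the 988, or 17.0% of the list. The window examined runs from base 1 to base 20422827 on FlyBase genome release 5, the build in the file headers. The first of the 988 starts at 23318 and the last ends at 20396487.

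Chromatin came from whole embryos of the wild-type strain Oregon-R-modENCODE at 14 to 16 h of development and was precipitated with the antibody NRO3. There were 3 ChIP replicates, each with its own region list, and 3 inputs, for which no list was analysed here. All samples shared 1 strain, genotype and stage, so the comparisons made are between parts of the genome and between replicates. The labels give no sex for the embryos and do not say whether the replicates were separate collections, so the p-values refer to the spread among these particular samples, which may be technical. In whole embryos, fewer cells carrying the mark and less mark per cell cannot be told apart. Read depth is unknown, since the lists give no counts, and bases outside a list are uncalled rather than shown to lack the mark.

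Ubiquitin is attached to H2B by the ligase Bre1, and the deubiquitylase module of the SAGA complex, with the enzyme Nonstop, removes it. The mark lies mainly over the bodies of transcribed genes, where it accompanies elongating RNA polymerase and favours methylation of histone H3. In male flies the X is transcribed at a raised rate by the MSL complex, which acetylates histone H4 over active X genes. This makes X a natural arm to set against autosomes for a mark of transcribed genes. The files pair no gene with any region, and no gene annotation of release 5 was used, so regions are named by position.

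The same rule was applied to each replicate list and to the autosomal arms 2L, 3L and 3R, leaving out the 2 Mb at the centromeric end of each (the first 2 Mb on 3R). It found 899, 871 and 941 X regions in replicates 1, 2 and 3, against 2807, 2759 and 2858 autosomal regions. In the combined list it found 988 on X, against 919 on 2L, 1000 on 3L and 1130 on 3R. The word euchromatic rests on position alone. In the replicate lists the X window held 45.0 to 48.3 regions of any width per Mb, against 17.5 to 25.5 per Mb in the centromeric 2 Mb of X. No X region crossed the border between them in any of the 4 lists.

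H2Bub regions under 20 kb were packed more densely on X than on each of the autosomal arms. Their density on X was 44.0, 42.6 and 46.1 per Mb in replicates 1, 2 and 3, against 40.4, 39.7 and 41.1 per Mb on the 3 autosomal arms together. X had the highest density of the 4 arms in 3 of 3 replicates. The mean was 44.2 ± 1.73 per Mb on X and 40.4 ± 0.713 per Mb on the autosomes (SD, n = 3). The within-replicate difference, X minus autosomes, was 3.82 ± 1.02 per Mb and was positive in 3 of 3 replicates. A two-sided exact permutation test that flips the signs of the 3 differences gave p = 0.25, which is as low as 3 replicates can go, and the Benjamini-Hochberg adjusted p over the 10 measures tested was 0.417. No measure here can pass 0.05 in this design, so a difference is read against its SD over replicates. All replicates measure the same arms, so this SD shows how repeatable a difference is, not how far arms differ from one another. With the higher-scoring 50% of each list the excess was 7.17 ± 0.804 per Mb (SD, n = 3), a cut that keeps more X regions because X regions scored higher. The same cut acts unequally on X and autosomes in the measures below, so its values there are no separate support. Without regions under 2 kb the excess was 2.53 ± 0.430 per Mb (SD, n = 3).

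These regions also held more of the X sequence. They covered 18.3%, 21.1% and 20.4% of the X window, against 17.5%, 19.0% and 19.1% of the autosomal windows. The difference was 1.41 ± 0.609 percentage points and was positive in 3 of 3 replicates (SD, n = 3; exact sign-flip permutation p = 0.25, adjusted 0.417). X was the highest of the 4 arms in each replicate, and 3L came next with 17.9%, 19.9% and 19.5%. On 2L the share was 17.5%, 18.6% and 18.6%, and on 3R it was 17.2%, 18.6% and 19.0%. The lead of X over 3L was thus about the size of the spread among the autosomal arms, or smaller. The excess was smaller, 0.921 ± 0.509 points, when regions of every width were counted (SD, n = 3). It was 0.808 ± 0.620 points with a margin of 1 Mb, 0.844 ± 0.376 against 3L alone, 2.99 ± 0.518 with the higher-scoring 50% of each list, and 2.43 in the combined list.

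On X a larger part of the called sequence lay in regions under 20 kb, and a smaller part in broad domains, than on the pooled autosomes. Regions under 20 kb held 72.1%, 70.6% and 72.9% of the called bases of the X window, against 71.1%, 67.1% and 69.3% on the autosomes. The difference was 2.74 ± 1.46 points, positive in 3 of 3 replicates (SD, n = 3; exact sign-flip permutation p = 0.25, adjusted 0.417). In replicate 1 the lead of X over 3L was narrow, 72.1% against 71.7%. The autosomal arms also differed among themselves. The share was 71.7%, 69.4% and 70.7% on 3L in replicates 1, 2 and 3, against 70.1%, 65.4% and 68.1% on 3R. In each replicate 3L was thus nearer to X than to 3R. Against 3L alone the difference was 1.29 ± 0.918 points, with a margin of 4 Mb it was 4.12 ± 1.81, and with the higher-scoring 50% of each list it was 6.20 ± 1.58 (SD, n = 3). Domains of 20 kb and over numbered 2.19 ± 0.221 per Mb on X and 2.36 ± 0.267 per Mb on the autosomes. That difference was -0.174 ± 0.0460 per Mb and negative in 3 of 3 replicates (SD, n = 3). Among the 4 single arms X was the lowest in only 2 of 3 replicates. In the combined list X had 2.89 per Mb, against 2.94 on the autosomes together, 2.88 on 3L and 2.74 on 3R.

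**Figure D1:**
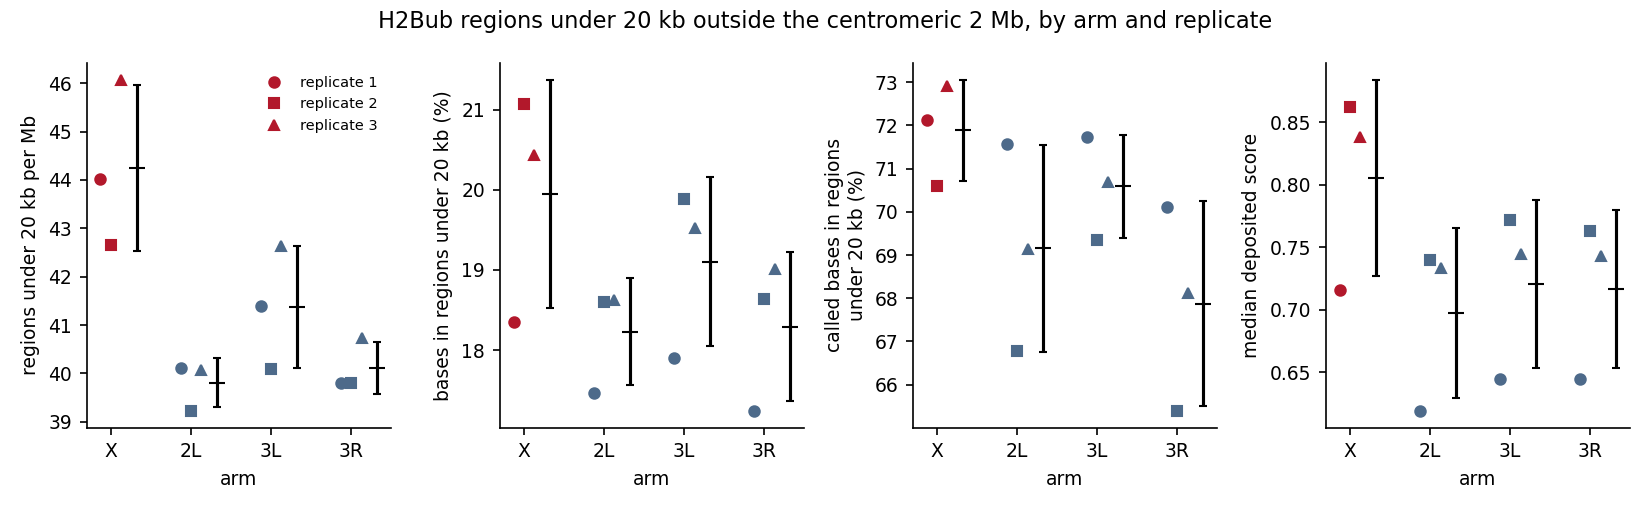
Regions under 20 kb per Mb, percent of bases in them, percent of called bases in them and their median deposited score, by arm, with 1 point per replicate and the mean ± SD (n = 3) in black; the vertical axes do not start at 0. In every panel the X point of a replicate lies above its points for 2L, 3L and 3R, as with 44.0, 42.6 and 46.1 regions per Mb on X.

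The extra regions on X were mostly under 10 kb. Regions of 2 to 5 kb made up 45.9% ± 0.802 of the X regions and 46.1% ± 0.681 of the autosomal ones (SD, n = 3). They numbered 20.3 ± 1.13 per Mb on X and 18.6 ± 0.587 per Mb on the autosomes, a difference of 1.68 ± 0.576. Regions of 5 to 10 kb differed by 0.733 ± 0.375 per Mb, and those under 2 kb by 1.29 ± 1.14 per Mb (SD, n = 3). The differences of these 3 classes were positive in 3 of 3 replicates, though for regions under 2 kb replicate 2 had almost none, with 8.72 per Mb on X and 8.67 on the autosomes. Regions of 10 to 20 kb were denser on X in replicate 2 alone, with 5.14 against 4.22 per Mb, and the difference over replicates was 0.114 ± 0.726 (SD, n = 3). In the combined list these widest regions numbered 5.78 per Mb on X and 4.78 on the autosomes, a difference of 0.998. There the regions under 2 kb, 12.7 per Mb on X and 12.5 on the autosomes, differed by only 0.171.

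The median width on X was close to that on the autosomes. It was 2913, 3463 and 3153 bp on X in replicates 1, 2 and 3, against 2988, 3391 and 3297 bp on the autosomes. The difference of -48.8 ± 110 bp was within the spread between replicates (SD, n = 3; exact sign-flip permutation p = 0.5, adjusted 0.625). Against 3R alone it was -151 ± 126 bp, negative in 3 of 3 replicates (SD, n = 3). The higher-scoring 50% of each list gave -713 ± 388 bp (SD, n = 3), but a cut on score lets narrower regions pass on X. Leaving out each replicate gave -109 to -1.5 bp, the first without replicate 2. The middle 50% of the 988 combined X regions were 1944 to 6345 bp wide, and their median was 3292 bp. The narrowest had 1001 bp, and 100 of the 988 were narrower than 1301 bp, the narrowest width found in any replicate list.

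**Figure D2:**
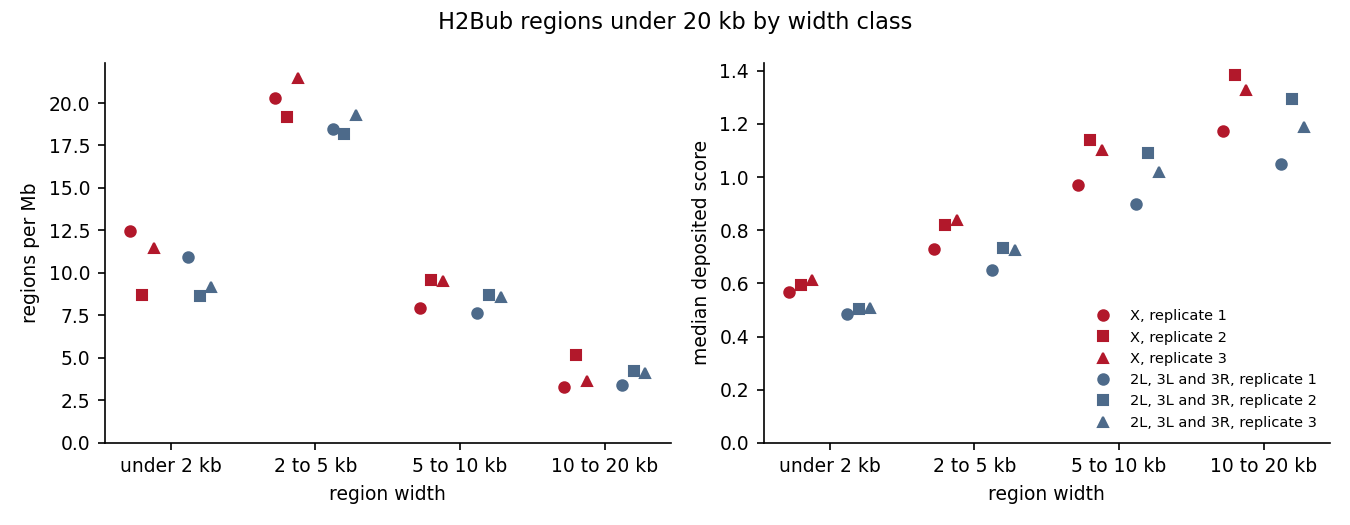
Density (left, regions per Mb) and median deposited score (right) of regions under 20 kb in 4 width classes on X (red) and on 2L, 3L and 3R together (blue), 1 marker shape per replicate. In each width class the X score of every replicate is above its autosomal score, and the density differs least clearly at 10 to 20 kb.

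Along X the regions were spread unevenly, and the replicates shared the pattern. The 40 full bins of 500 kb held 6 to 41 regions in replicate 1 (median 22), 7 to 38 in replicate 2 (median 21.5) and 7 to 38 in replicate 3 (median 21). Across these bins, Pearson's r of the counts was 0.794, 0.805 and 0.834 for replicates 1 and 2, 1 and 3, and 2 and 3. Bins share libraries and are not independent, so no p is given.

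The bin with the fewest regions under 20 kb was the same in all 4 lists. From 7000001 to 7500000 the replicates had 6, 7 and 7 regions under 20 kb, and the combined list had 7. Regions of any width covered 12.6%, 13.9% and 13.1% of this bin in the replicates. Domains of 20 kb and over took 7.71%, 8.89% and 7.89% of it. Less was called from 14000001 to 14500000, with 7.20%, 10.4% and 8.01% in regions under 20 kb and no wider domain. The longest stretch without a region, described below, lies almost wholly in the bin from 7000001 to 7500000. The low count of that bin and this stretch are therefore not separate observations. The bin with the most combined regions was 8000001 to 8500000, 500 kb beyond the end of the bin with the fewest, with 43. It held 26, 29 and 31 in the replicates, where 9, 5 and 7 of the 40 bins had more. The highest mean count over the replicates was in the bin from 15500001 to 16000000, chosen after its values were seen. The replicates had 41, 38 and 38 regions there, which covered 40.5% ± 2.53 of it (SD, n = 3), and no wider domain lay in it in any list.

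With the window cut into 4 equal stretches, the one nearest the centromere, 15317121 to 20422827, was covered more than the rest. Regions under 20 kb took 23.1% ± 0.529 of its bases, against 19.7% ± 1.32, 18.4% ± 1.59 and 18.6% ± 2.39 in the other stretches from the telomeric end onward (SD, n = 3). It also had 47.1 ± 1.57 regions per Mb, where the others had 42.4 ± 1.39, 44.7 ± 3.21 and 42.8 ± 1.97. In the combined list it was again the most covered, but the order of density was another one, with 48.6 per Mb in it and 45.0, 50.9 and 49.0 per Mb in the others. The stretches were set after the data were seen and were not tested.

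**Figure D3:**
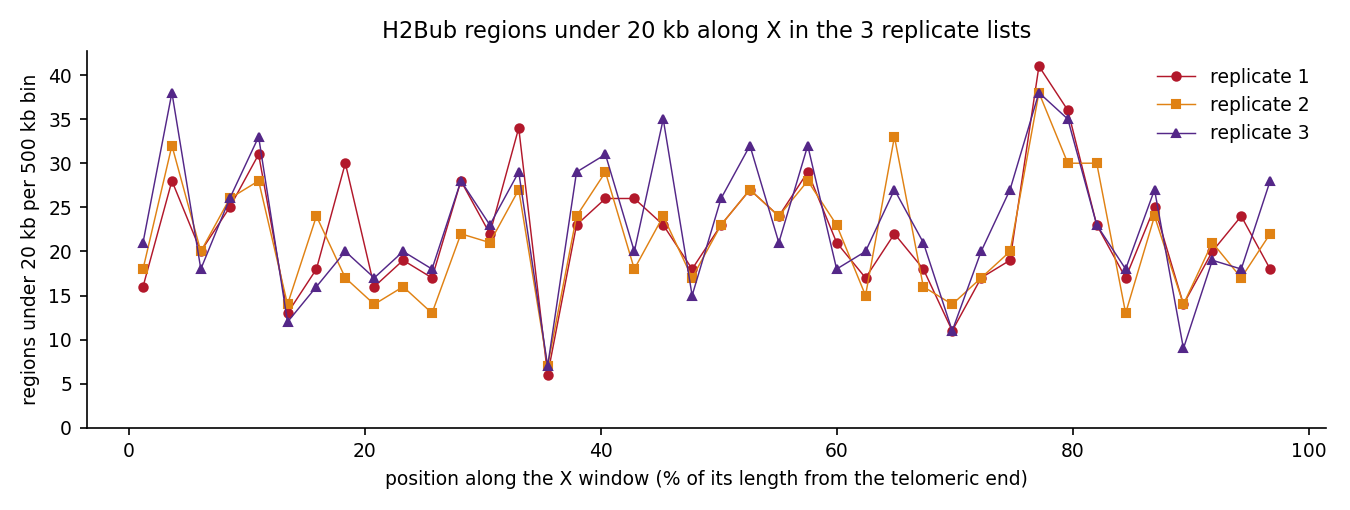
Number of regions under 20 kb in each 500 kb bin of the X window, by position as percent of the window's length from the telomeric end, 1 line per replicate. All 3 lines have their lowest bin at the same place, with 6, 7 and 7 regions, and reach 41, 38 and 38 at the bin with the highest mean.

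The frequency of close neighbours on X lay within the spread between replicates of that on autosomes when whole lists were used, while isolated regions were fewer on X. The uncalled gap from a region under 20 kb to the next region of any width had a median of 4357, 3753 and 3541 bp on X in replicates 1, 2 and 3. On the autosomes it was 4134, 4048 and 3696 bp. The difference of -75.7 ± 268 bp was within the spread between replicates (SD, n = 3; exact sign-flip permutation p = 0.75, adjusted 0.75). It was -631 ± 59.1 bp with regions under 1000 bp apart merged and -333 ± 250 bp when measured to the next region under 20 kb (SD, n = 3), each negative in 3 of 3 replicates. The higher-scoring 50% of each list, the cut that keeps more X regions, gave -4879 ± 601 bp (SD, n = 3). With whole lists, leaving out replicate 1 gave -225 bp and leaving out replicate 2 gave 34 bp. Gaps under 2 kb were 34.4% ± 2.14 of the X gaps and 34.6% ± 1.64 of the autosomal gaps. That difference of -0.214 ± 0.500 points also fell within the spread (SD, n = 3; exact sign-flip permutation p = 0.75, adjusted 0.75). With the higher-scoring 50% of each list, which keeps more X regions, it turned to 3.88 ± 1.31 points (SD, n = 3).

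The long gaps differed more. The gap at the 75th percentile was 12699, 12447 and 11714 bp on X, against 15894, 16007 and 13869 bp on the autosomes. Regions with no neighbour within 10 kb on either side were 9.68%, 8.84% and 7.97% of X regions, against 12.1%, 12.0% and 11.3% of autosomal regions. This difference was -2.99 ± 0.463 points and negative in 3 of 3 replicates (SD, n = 3). Both measures were added after the data were seen. X also has more regions per Mb, and whether spacing differs beyond that density was not tested.

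Chains were runs of at least 3 regions under 20 kb with every gap under 2 kb. They took in 30.6%, 23.9% and 32.3% of X regions in replicates 1, 2 and 3, against 26.2%, 24.4% and 28.8% of autosomal regions. The difference of 2.48 ± 2.60 points was within the spread, and replicate 2 went the other way (SD, n = 3; exact sign-flip permutation p = 0.5, adjusted 0.625). It was positive in 3 of 3 replicates at 3.34 ± 2.08 points with gaps up to 5 kb, 1.80 ± 1.35 with gaps up to 1 kb and 3.57 ± 2.42 against 3L alone (SD, n = 3). The higher-scoring 50% of each list, the cut that keeps more X regions, gave 3.51 ± 1.61 (SD, n = 3). It was positive in 2 of 3 with a width limit of 10 kb, 1.24 ± 2.88, and against 3R alone, 1.44 ± 3.34 (SD, n = 3). With regions under 1000 bp apart merged it was -0.0237 ± 1.25 (SD, n = 3), and in the combined list it was 0.942. Leaving out each replicate gave 1.52 to 3.96 points, the lowest without replicate 1 and the highest without replicate 2. Region counts in 100 kb bins varied somewhat less along X than along the pooled autosomes, by about the spread between replicates. Their variance divided by their mean was 2.26 ± 0.109 on X and 2.44 ± 0.148 on the autosomes, a difference of -0.182 ± 0.178 (SD, n = 3; negative in 3 of 3; exact sign-flip permutation p = 0.25, adjusted 0.417). Without replicate 1 it was -0.0799, and in bins of 50 kb it turned to 0.0467 ± 0.00201, while in bins of 500 kb it was -0.654 ± 0.135 and negative in 3 of 3 replicates (SD, n = 3). In 100 kb bins X had the lowest ratio of the 4 arms in only 1 of 3 replicates. In replicates 2 and 3 the ratio was 2.06 and 2.21 on 3L, against 2.19 and 2.38 on X.

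The 3 longest chains of the combined list on X differed in how far the replicates shared them. The longest ran from 740225 to 778468 and had 9 regions with a median width of 3034 bp and gaps of 8 to 1990 bp. Replicate regions covered 5.01%, 57.1% and 59.5% of its span in replicates 1, 2 and 3, so replicate 1 all but lacked it. The second, from 16161487 to 16196718, had 8 regions, and 8 regions lay on it in each replicate as well, covering 66.9%, 70.7% and 58.9%. The third, from 3151863 to 3177599, had 7 regions. Replicates 1 and 3 covered only 6.90% and 19.4% of it, with replicate 2 at 74.4%.

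The 5 longest gaps between regions of the X window were empty in nearly all replicates. They ran from 7237382 to 7501794 (264 kb), from 13893329 to 14095336 (202 kb), from 18062095 to 18261883 (199.8 kb), from 4614574 to 4802938 (188 kb) and from 11923448 to 12097362 (174 kb). Only the gap from 18062095 was touched by a replicate region, over 0.0405% of its length in replicate 2. These gaps were picked for being empty in the combined list. If the replicates entered that list, their near-emptiness in the replicates was largely set by the choice. How well reads can be placed in these gaps was not tested.

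The scores of X regions exceeded those of autosomal regions throughout the window, in each of its 1 Mb bins. The score is the authors' own value for each region, no source used here defines it, and it was compared only within a list. The median score was 0.716, 0.862 and 0.838 on X in replicates 1, 2 and 3, against 0.638, 0.760 and 0.743 on the autosomes. Wider regions scored higher on X and on the autosomes, with Spearman's rho of width and score of 0.782 ± 0.00976 across X regions and 0.806 ± 0.00815 across autosomal regions (SD over replicates, n = 3). Scores were therefore also compared within 10 width classes that held equal numbers of regions. There X exceeded the autosomes by 0.0773, 0.0881 and 0.108, a mean of 0.0912 ± 0.0156 (SD, n = 3; exact sign-flip permutation p = 0.25, adjusted 0.417). A higher score of X regions as a whole was already known from these data, so this repeats that result for the regions under 20 kb. It was 0.0361 ± 0.0165 with the higher-scoring 50% of each list (SD, n = 3) and 0.0495 in the combined list.

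The excess was present in each width class and at the 10th and 90th percentiles of the score, but not at its maximum. It was 0.0929 ± 0.0108 for regions under 2 kb, 0.0928 ± 0.0161 at 2 to 5 kb, 0.0670 ± 0.0159 at 5 to 10 kb and 0.118 ± 0.0246 at 10 to 20 kb, positive in 3 of 3 replicates in each class (SD, n = 3). The 10th percentile of the score was 0.533, 0.586 and 0.578 on X, against 0.459, 0.494 and 0.492 on the autosomes. The 90th percentile was 1.19, 1.52 and 1.39 on X, against 1.11, 1.43 and 1.33. The highest score was lower on X, at 1.99, 2.56 and 2.26, against 2.44, 3.27 and 2.50 on the autosomes. In each replicate it was below the highest score of 2L, of 3L and of 3R. Of the X regions, 73.7%, 71.4% and 72.6% scored above the autosomal median of their width class in replicates 1, 2 and 3. The share of all autosomal regions, 49.9% in each, is near 50% by construction. On single autosomal arms the share was 48.1% to 52.4% over the replicates.

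The excess was not carried by a few places on X. In each of the 20 full 1 Mb bins of the window, the median X score lay above the autosomal median for the same widths, and this held in each replicate list. It held in the combined list too, though there the lowest bin, 10000001 to 11000000, was at 0.00209, close to 0. Of the 68 autosomal bins of 1 Mb, 54.4%, 52.9% and 52.9% lay above 0 in replicates 1, 2 and 3. The autosomal bins are centred near 0 by construction. By the mean over replicates, the X bin with the largest excess was 1000001 to 2000000, with 0.192 ± 0.0486, and the one with the smallest was the telomeric bin before it, 1 to 1000000, with 0.0394 ± 0.0130 (SD, n = 3 each). The lowest bin differed between replicates, being 10000001 to 11000000 in replicate 1 with 0.0353, the telomeric bin in replicate 2 with 0.0247 and 13000001 to 14000000 in replicate 3 with 0.0432. The bins of X in a replicate held 28 to 65 regions each. The autosomal arms differed far less among themselves. Set against the other autosomal arms in the same way, 2L differed by -0.00936 ± 0.0111, 3L by 0.0179 ± 0.0146 and 3R by -0.0119 ± 0.00707 (SD, n = 3).

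**Figure D4:**
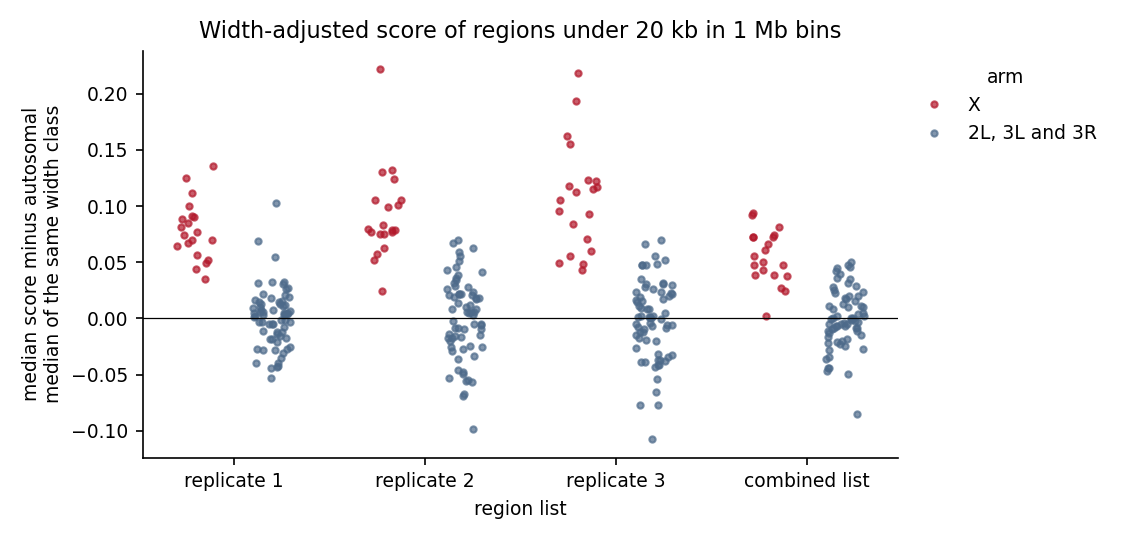
Median score of regions under 20 kb in each 1 Mb bin, minus the autosomal median for the same width class, in the 3 replicate lists and the combined list, for X (red) and for 2L, 3L and 3R (blue); each point is 1 bin. All 20 X bins lie above 0 in every list, the lowest at 0.00209 in the combined one, while the 68 autosomal bins lie on both sides of it.

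X regions in chains did not score higher than the others. Their median score was 0.702, 0.814 and 0.826 in replicates 1, 2 and 3, against 0.720, 0.874 and 0.844 for X regions outside chains. The autosomes showed the same order, with 0.616, 0.699 and 0.710 inside chains, against 0.649, 0.776 and 0.753 outside. The median widths of X regions in chains were 3023, 3366 and 3251 bp, against 2859, 3487 and 3107 bp outside them.

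The X regions of the combined list were less fully covered by replicate regions than autosomal ones. On X, 576 of the 988 overlapped a region in all 3 replicate lists by at least 1 bp, which is 58.3%. This share was 60.9% among autosomal regions chosen by the same rule and 63.1% over the whole combined list. A further 140 X regions overlapped 2 lists, 145 overlapped 1 and 127 overlapped none, or 14.2%, 14.7% and 12.9%. These shares were close to the 13.6%, 13.3% and 12.2% of autosomal regions and the 13.2%, 12.5% and 11.2% of the whole combined list. X regions in all 3 lists had a median width of 5491 bp, against 1266 bp for X regions in none, of which 68 were narrower than any replicate region. A wide region meets an overlap of 1 bp more easily.

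Replicate regions covered a mean of 51.8%, 68.9% and 61.7% of the bases of an X region in replicates 1, 2 and 3, against 54.6%, 70.5% and 65.8% of an autosomal one. The difference was -2.85 ± 1.27 points and negative in 3 of 3 replicates (SD, n = 3; exact sign-flip permutation p = 0.25, adjusted 0.417). With the higher-scoring 50% of each list it shrank to -0.203 ± 1.80 points and was negative in 2 of 3 replicates (SD, n = 3). Counted as regions met by 1 bp or more it was -1.78 ± 0.699 points (SD, n = 3). Narrow regions were the least shared on X and on the autosomes. Under 2 kb, 9 of 259 X regions, or 3.47%, met all 3 lists, against 7.13% of the autosomal ones. At 2 to 5 kb, 246 of 392 X regions did, or 62.8%, against 71.1%. At 5 to 10 kb the shares were 93.2% on X and 94.2% on the autosomes, and at 10 to 20 kb they were 99.2% and 99.1%.

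**Figure D5:**
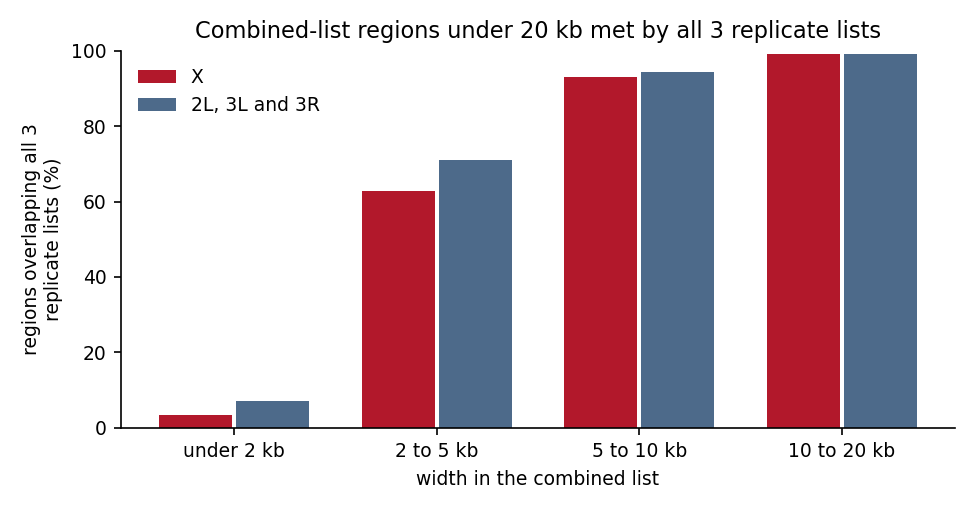
Percent of combined-list regions that overlap a region in all 3 replicate lists, by their width in the combined list, for X (red) and for 2L, 3L and 3R (blue). The bars rise with width from 3.47% to 99.2% on X, and X is below the autosomes in the 3 classes under 10 kb.

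Where 1 combined X region met exactly 1 replicate region and the reverse, the replicate region was usually the narrower. There were 529, 654 and 582 such pairs in replicates 1, 2 and 3, and the replicate region was narrower in 97.2%, 85.6% and 71.8% of them. The median width of the replicate region was 0.855, 0.955 and 0.941 times that of its combined partner. Spearman's rho of the paired scores was 0.924, 0.960 and 0.832. These pairs share their reads if the replicates entered the combined list, which the sources used here do not say. In addition, 124, 84 and 109 of the 988 were split into more than 1 region in replicates 1, 2 and 3. The most pieces of 1 X region were 5, 3 and 4. Split regions were 12.55%, 8.50% and 11.03% of the X regions, against 10.82%, 7.94% and 10.43% of the autosomal ones. Over the whole combined list they were 13.68%, 8.98% and 12.50%. The X share thus lay between the autosomal and whole-list shares in each replicate.

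Of the 5 widest of the 988, 4 were split in at least 1 replicate. X from 14693812 to 14713686 (19875 bp) was covered over 77.5% by 2 regions in replicate 1, and by 1 region over 90.3% and 99.8% in replicates 2 and 3. X from 16657593 to 16677414 (19822 bp) was covered over 84.8%, 100% and 83.3%. X from 3654547 to 3674329 (19783 bp) lay in 5, 2 and 3 pieces that covered 79.0%, 89.5% and 53.7%. X from 8680480 to 8700038 (19559 bp) was covered over 91.7%, 95.5% and 85.6%. X from 8767021 to 8786469 (19449 bp) was a single region in each replicate, covered over 99.6%, 99.1% and 97.8%. The width limit falls within a continuous range, since the 3 X regions just above it were 20122, 20321 and 20350 bp wide, with scores of 1.44, 1.74 and 0.897. The 3 just below it, the first of the 5 above, scored 0.896, 1.44 and 0.764.

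Of the 5 highest-scoring combined X regions, 4 were high in every replicate. They were X from 9979802 to 9990134 with a score of 2.24, from 17549693 to 17564346 with 2.22, from 9521922 to 9535323 with 2.13 and from 1885539 to 1899011 with 2.07. In the same order, their widths were 10333, 14654, 13402 and 13473 bp. Each was 1 region in each replicate, and the mean coverage by replicate regions was 98.7% ± 1.36, 91.2% ± 1.35, 98.3% ± 1.17 and 98.6% ± 0.722 (SD, n = 3). The scores of these replicate regions exceeded 97.8% to 99.6% of the scores in their own list. The regions were picked for their combined score. If the replicates entered the combined list, their high scores in the replicates were largely set by the choice. The highest-scoring of the 5 was different. X from 4815836 to 4816836 had a combined score of 3.06 at a width of 1001 bp, and no region of any replicate overlapped it.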

How the data were processed

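H2Bub ChIP-seq of whole embryos was deposited as 4 GFF3 lists of enriched regions, 1 for each of the 3 ChIP replicates and 1 for the series, on FlyBase release 5 per the file headers. The submitters' processing notes name the aligner Bowtie, version 0.12.7. The deposited score of each region is the authors' value, and no source used here gives its definition, the region caller, the threshold or the libraries behind the combined list. Region starts and ends were used as deposited, counted from 1.

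Regions were selected by arm, width and position, and widths, gaps, chains, counts in bins and covered bases were computed with Python 3.11.15, numpy 2.4.6, pandas 2.3.3 and scipy 1.17.1. Width classes are deciles of the regions compared in a list. Score differences are medians per class weighted by the X counts. Each measure was taken per replicate list, and X minus the pooled arms 2L, 3L and 3R was tested with an exact permutation test, two-sided, that flips the signs of the 3 within-replicate differences (sign-flip test), with Benjamini-Hochberg adjustment over 10 measures. The functions were tested on simulated lists. Named regions are the 5 widest, the 5 highest-scoring, the 5 longest gaps and the 3 longest chains, all from the combined list. The 500 kb bins with the most and the fewest regions were taken from it too, as were the 3 regions on each side of the width limit. The members, measures and lists were chosen with earlier results of these data known. Alternatives were other margins, width limits, merging, single arms, the higher-scoring 50% of a list, other gap and bin sizes, leaving out each replicate and the combined list; dropping the width limit or regions under 2 kb was added after seeing the data.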

Additional observations from a re-analysis of the deposited data

How the results depend on the processing

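Each of the 10 measures was recomputed under 13 to 17 alternative settings, some of which applied to 1 measure only. This gave 148 recomputed differences in all, and the direction of the mean turned in 16 of them. The higher-scoring 50% of each list moved several measures by more than 1.5 times, such as the density to 7.17 per Mb and the median gap to -4879 bp. That cut keeps more X regions because X regions scored higher. The density of X regions, their covered share, their share of called bases, their score and their lower share called in the replicates kept the direction of their mean under each alternative run for them. In the combined list, which is 1 list with no test, the excess of covered share was larger, 2.43 points, and that of the score smaller, 0.0495. The turns in direction came in measures whose difference was about the size of the spread between replicates or less. For the median width, X minus autosomes was 5 bp with a width limit of 10 kb, 73.7 bp against 2L alone and 38 bp in the combined list. For the median gap it was 20 bp with a margin of 4 Mb and 105 bp against 3R alone, and leaving out each replicate gave -225 to 34 bp. For gaps under 2 kb it was 3.88 points with the higher-scoring 50% of each list, 1.12 against 3L alone, 0.0136 in the combined list, 0.174 with a limit of 1 kb and 0.613 with 5 kb, and -0.483 to 0.0118 leaving out each replicate. For chains it was -0.0237 points with regions under 1000 bp apart merged. For the dispersion of counts it was 0.149 with the higher-scoring 50%, 0.0469 against 3L alone and 0.0467 in bins of 50 kb. The cause was not tested. No paired analysis was possible because the inputs have no region list here, as far as ChIP against input goes. X and autosomes were compared as pairs within each replicate list. Depth is unknown, so its effect on narrow regions could not be measured.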

Other observations

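The highest score among the X regions, 3.06, was shared to the last digit by 2 other regions, since 3 regions of the combined list carry it. Exact ties were not rare: 95 of the 988 X regions had a score identical to that of another combined region, and their median width was 1705 bp, against 3292 bp for all 988. Over the whole combined list, 445 regions had a shared score.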
